A study of Mus musculus with 30 samples.

Results

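Gene expression in the frontal cortex was compared between mice 24 h and mice 6 h after an injection of lipopolysaccharide (LPS), the endotoxin of Gram-negative bacteria, which sets off systemic inflammation. The libraries were chosen by their tissue and treatment labels: 4 libraries at 24 h (mice A274, A275, A276 and A278) and 4 at 6 h (mice A240, A241, A242 and A243), 8 of the 30 in the series, which also covers the hippocampus and a 12 h time. All genes were examined: 17111 of the 48820 listed had enough counts to be tested. The animals were adult male wild-type C57BL/6J mice, an inbred strain, aged 8 to 12 weeks and weighing about 30 g. Every mouse, including the saline controls, carried a history meant to model Gulf War Illness. It began with corticosterone (CORT), the main glucocorticoid of rodents, dissolved at 200 mg/L (0.6% ethanol) in the water they drank for 7 days. On day 8 diisopropyl fluorophosphate (DFP), an organophosphate inhibitor of acetylcholinesterase, was injected intraperitoneally at 4 mg/kg. CORT was then given in alternate weeks, 7 days at a time, to 5 weeks in all. LPS was given once on the last day at 0.5 mg/kg under the skin, and saline mice were collected at 6 h alone (3 libraries). Mice without that history were not analysed here. Tissue of 24 h and 6 h may also differ in the time since the last CORT and in the hour of collection, neither of which the labels give. Time after LPS cannot be told apart from these.

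LPS in the blood is sensed by a receptor complex of CD14 and Toll-like receptor 4, which acts through the transcription factor NF-kB to switch on cytokines such as interleukin-1 beta, chemokines that attract leucocytes, and adhesion molecules on the inner wall of vessels. Interferons, acute phase proteins and the response of microglia, the resident macrophages of the brain, follow with their own time courses. The adrenal gland answers inflammation with glucocorticoids, which act through their own receptor on many genes of astrocytes, vessels and immune cells, and which can suppress NF-kB target genes.

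The start regions of 5 genes whose transcripts moved in different directions between 6 h and 24 h are given here. Those of Cxcl1, Cxcl2 and Cxcl10 were chosen after their matches to the motifs below had been seen. Cxcl1, Cxcl2 and Cxcl10 encode chemokines, the first pair neutrophil attractants that were lower at 24 h and the third an interferon-inducible T cell attractant that was higher. Plin4, a lipid droplet coat protein, and Fcrls, a microglial Fc receptor-like protein, had the largest fall and the largest rise under the rule for named genes. Sequences run 5′ to 3′, 250 bases before to 50 bases after the annotated start, on GRCm38.p6 from RefSeq: chr5:90890995-90891294 plus strand for Cxcl1, chr5:90903649-90903948 plus strand for Cxcl2, chr5:92348840-92349139 minus strand for Cxcl10, chr17:56109733-56110032 minus strand for Plin4 and chr3:87263475-87263774 minus strand for Fcrls. Capitals mark matches, on either strand, to NF-kB-like GGANTTNCC, interferon-response-like TTCNNTTTC and glucocorticoid-response-like ACANNNTGT.
Cxcl1: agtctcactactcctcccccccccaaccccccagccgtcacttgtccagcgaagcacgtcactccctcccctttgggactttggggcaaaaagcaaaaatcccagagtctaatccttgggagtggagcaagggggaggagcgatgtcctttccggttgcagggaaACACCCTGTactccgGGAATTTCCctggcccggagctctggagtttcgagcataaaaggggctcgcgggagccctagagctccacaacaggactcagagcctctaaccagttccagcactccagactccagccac
Cxcl2: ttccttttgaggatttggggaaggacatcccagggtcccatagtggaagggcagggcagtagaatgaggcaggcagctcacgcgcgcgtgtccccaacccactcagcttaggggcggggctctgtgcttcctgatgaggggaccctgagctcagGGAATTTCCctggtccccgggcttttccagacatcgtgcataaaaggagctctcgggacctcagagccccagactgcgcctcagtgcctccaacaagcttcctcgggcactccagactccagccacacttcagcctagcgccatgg
Cxcl10: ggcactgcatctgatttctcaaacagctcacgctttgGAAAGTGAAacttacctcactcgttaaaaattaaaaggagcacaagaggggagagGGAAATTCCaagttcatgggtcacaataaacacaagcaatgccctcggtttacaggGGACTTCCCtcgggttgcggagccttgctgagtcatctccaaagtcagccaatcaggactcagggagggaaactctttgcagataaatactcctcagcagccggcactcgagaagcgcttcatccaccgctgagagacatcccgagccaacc
Plin4: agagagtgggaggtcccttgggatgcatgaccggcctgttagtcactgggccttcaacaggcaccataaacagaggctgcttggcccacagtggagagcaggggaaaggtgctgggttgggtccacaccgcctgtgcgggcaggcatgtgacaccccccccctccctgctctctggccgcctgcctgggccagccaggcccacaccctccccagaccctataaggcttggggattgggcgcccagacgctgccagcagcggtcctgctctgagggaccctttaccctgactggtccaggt
Fcrls: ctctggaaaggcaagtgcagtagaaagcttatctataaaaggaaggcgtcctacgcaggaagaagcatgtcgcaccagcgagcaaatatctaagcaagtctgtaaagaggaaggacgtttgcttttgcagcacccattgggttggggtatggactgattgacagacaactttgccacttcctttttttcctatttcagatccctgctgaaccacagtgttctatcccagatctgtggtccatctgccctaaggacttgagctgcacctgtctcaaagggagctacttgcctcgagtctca

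Counted from the start, the NF-kB-like match GGAATTTCC began at base -70 of Cxcl1 and at base -96 of Cxcl2. Cxcl10 held GGAAATTCC at -158 on the minus strand and GGACTTCCC at -102, with the interferon-response-like GAAAGTGAA at -213 on the minus strand. Cxcl1 also held the glucocorticoid-response-like ACACCCTGT at -85. No match to these motifs, to the E-box CACGTG or to the D-box TTATGTAA lay in the Plin4 or Fcrls window. The rule for promoters picked 6 genes, the others being Sult1a1, Il1b, Olfml3 and Capn3, and none of the 6 windows held a match. That says only that these letters are not in these windows. The chemokine windows were chosen after their matches had been seen, and a match is not a binding site. Of the genes called at an adjusted p under 0.05, 103 of the 135 higher and 126 of the 178 lower ones had an entry in the table. NF-kB-like matches stood in 3.88% of the promoters of genes higher at 24 h, 7.14% of those of genes lower at 24 h, 3.84% of 12018 tested genes and 3.91% of all 27025 promoters of the table. Glucocorticoid-response-like matches stood in 0.971% (1 gene), 9.52% (12 genes), 4.25% and 6.9% of the same groups. Interferon-response-like matches stood in 4.85%, 8.73%, 7.2% and 8.57%.

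Values are the authors' read counts, expressed as CPM (counts scaled to the library total and the TMM factor), and per-library values are given in the mouse order above. Marker sums and the ribosomal RNA entry are scaled to the library total alone, so they are not on quite the same scale as the CPM of single genes. Library totals were 19481365 to 21892334 counts at 24 h and 18479503 to 21401131 at 6 h. Cortical layer markers summed to 1146 to 1468 CPM at 24 h and 1118 to 1415 CPM at 6 h, and general neuronal markers to 6894 to 7650 against 6551 to 7769 CPM. Striatal markers were also present (232.5 to 606.9 against 258.7 to 506.7 CPM). Choroid plexus markers stood apart in 1 library of each time: 512.1 CPM in A275 at 24 h (group median 75.91) and 472.6 CPM in A241 at 6 h (group median 57.75). Mitochondrially encoded transcripts took 6.617 to 7.867% of counts at 24 h and 8.169 to 11.45% at 6 h, a difference of -1.84 percentage points (exact two-sided permutation test, p = 0.0286, the smallest that 4 against 4 allows). An entry for ribosomal RNA was at 6266 CPM in A276, against 434.4 to 2145 CPM in the other 24 h libraries and 359.7 to 965.9 CPM at 6 h. Within the 24 h group, the 116 genes named in the text often split by pairs of libraries. In 79 of them A274 and A275 lay on one side of A276 and A278 (35 higher, 44 lower), against 14 and 23 for the other possible pairings. These genes were picked, many by their values, and the split was not counted over all genes tested. Over those, chi-square per gene was 8.88 for A275 and A278, 8.95 for A274 and A275 and 10.41 for A276 and A278. Correlations of log2 CPM were 0.9948, 0.9956 and 0.9959 in the same order. The part of choroid plexus, ribosomal or mitochondrial reads in the results below was not tested.

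Between 24 h and 6 h, 313 of 17111 genes were called by edgeR's quasi-likelihood test at a Benjamini-Hochberg adjusted p under 0.05: 135 were higher at 24 h (0.789% of genes tested) and 178 were lower (1.04%). At an unadjusted p under 0.05 there were 2669. The change was at least 2-fold in 31 of the higher and 41 of the lower genes. Every 24 h library lay beyond every 6 h library in 131 of the 135 and 168 of the 178. Being called favours such separation, and its share over all genes tested was not counted, so it adds no evidence to the calls. The median log2 fold change of all tested genes was -0.01. Of the 135 higher genes 132 were protein coding and none was a pseudogene, and 18 of the 178 lower genes were pseudogenes. The shares of both kinds over all genes tested were not counted, so these counts do not set the called genes apart. With library totals in place of TMM scaling, 244 genes were higher and 118 lower, so that 67.4% of calls were rises instead of 43.1%, and the median of all genes moved to 0.05. The count of calls rested on single libraries: it was 108 without A240, 110 without A275, 122 without A274, 163 without A242, 188 without A243 and 200 without A276, against 329 without A241 and 346 without A278. Without both A241 and A275 it was 107. None of the 313 genes changed direction in any of these fits. Of the 95 called genes named in the text, 29 were called in all 8 fits that left out a library and 2 in none of them: 57 lost their call without A274, 58 without A275, 35 without A276, 15 without A278, 50 without A240, 28 without A241, 46 without A242 and 38 without A243. Below, a gene whose call did not hold in all 8 carries the highest of those adjusted p values and the library left out. P-values set each change against a spread between mice that was estimated over all 15 cortex libraries, saline and 12 h included. With only the 8 libraries compared, 309 genes were called, and 235 of the 313 were among them. The 8 mice carry different codes.

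**Figure D1:**
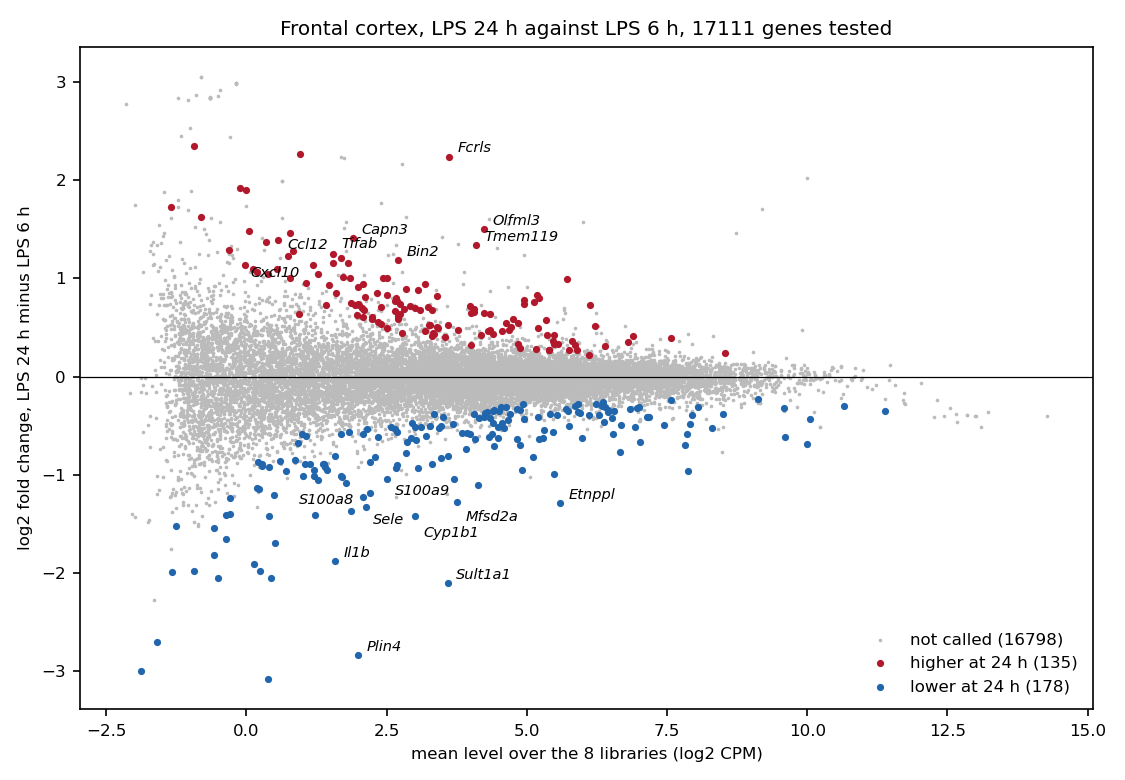
Log2 fold change (LPS 24 h minus LPS 6 h, frontal cortex, vertical axis) against mean level over the 8 libraries (log2 CPM, horizontal axis) for the 17111 genes tested, with 135 called higher in red, 178 called lower in blue and the rest in grey. Labelled genes are some of the largest changes with groups that did not overlap, from Plin4 at -2.84 to Fcrls at 2.24.

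Inflammatory cytokine and chemokine genes were called in both directions. Here and in every list below, the shares to set beside the counts are 0.789% higher and 1.04% lower over all genes tested. A single call in a list says little about the list as a whole. Of 22 genes on the list 15 were tested, and 2 were higher at 24 h (Ccl12 and Cxcl10), 3 were lower (Il1b, Cxcl1 and Cxcl2) and 10 were not called, with a list median of -0.60 on the log2 scale against -0.01 for all genes. Il1b encodes the fever-inducing cytokine interleukin-1 beta (ENSMUSG00000027398.13, GRCm38 chromosome 2, 129364570 to 129371139). Its level was 0.669, 1.49, 1.95 and 2.47 CPM at 24 h against 2.65, 8.8, 5.4 and 7.44 CPM at 6 h, with saline libraries at 0.603, 0.304 and 0.345 CPM. Every 24 h library was below every 6 h library, though A278 and A240 nearly met, and the log2 fold change was -1.88 ± 0.44 (SE; adjusted p = 0.0465). Cxcl1 had 13 reads in all at 24 h, 50 at 6 h and 0 in saline, a ratio of 0.254 after scaling to library totals (exact 95% interval 0.127 to 0.475, counting error only; adjusted p = 0.0366). Its highest 24 h library, A275 at 0.297 CPM, stayed below its lowest 6 h library, A240 at 0.379 CPM. Cxcl2 had 5 reads at 24 h, 41 at 6 h and 1 in saline, a ratio of 0.119 (0.0368 to 0.301; adjusted p = 0.0465), and here the groups overlapped, since A240 had 0.0541 CPM while A276 and A278 had 0.0909 and 0.0933 CPM. At 24 h and in saline Cxcl1 and Cxcl2 both lay under the count filter. They were tested only because other LPS libraries held more reads, so these falls are not independent of that filter.

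Ccl12 and Cxcl10 were the called chemokines that were higher at 24 h. Ccl12 (ENSMUSG00000035352.3, chromosome 11, 82101845 to 82103400), a mouse monocyte chemoattractant, stood at 3.11, 3.51, 6.54 and 6.77 CPM at 24 h against 1.89, 1.72, 3.1 and 1.89 CPM at 6 h. The lowest 24 h library, A274, only just exceeded A242, the highest at 6 h, and the log2 fold change was 1.21 ± 0.27 (adjusted p = 0.0317). Cxcl10 (ENSMUSG00000034855.13, chromosome 5, 92346638 to 92348889) was at 3.78, 2.57, 2.55 and 4.62 CPM against 0.812, 1.88, 1.69 and 1.71 CPM, with no overlap and a log2 fold change of 1.14 ± 0.29 (adjusted p = 0.0499). Both were at most 0.302 CPM in any saline library, so Ccl12 and Cxcl10 were further above saline at 24 h (log2 4.78 and 4.79) than at 6 h (3.57 and 3.64), while Il1b was at log2 1.99 at 24 h (adjusted p = 0.116) against 3.86 at 6 h (adjusted p = 0.00183). Tnf, the cytokine tumour necrosis factor, was at 0.372 ± 0.354 CPM at 24 h and 0.927 ± 0.25 CPM at 6 h (SD, n = 4 each), which did not pass (adjusted p = 0.215). Ccl2, the monocyte attractant next to Ccl12, was at 1.29 ± 1.07 against 2.66 ± 1.61 CPM (adjusted p = 0.287), with overlapping groups in both genes. None of the 5 calls held in all the fits that left out a library, and Cxcl1 and Cxcl2 had enough counts to be tested in only 5 of the 8. The highest adjusted p was 0.128 for Il1b (without A275), 0.103 for Cxcl1 (without A274), 0.138 for Cxcl2 (without A274), 0.103 for Ccl12 (without A240) and 0.154 for Cxcl10 (without A240). Cxcl10 lost its call without any 1 of the 8 libraries, and its log2 fold change then stayed between 0.94 and 1.26.

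**Figure D2:**
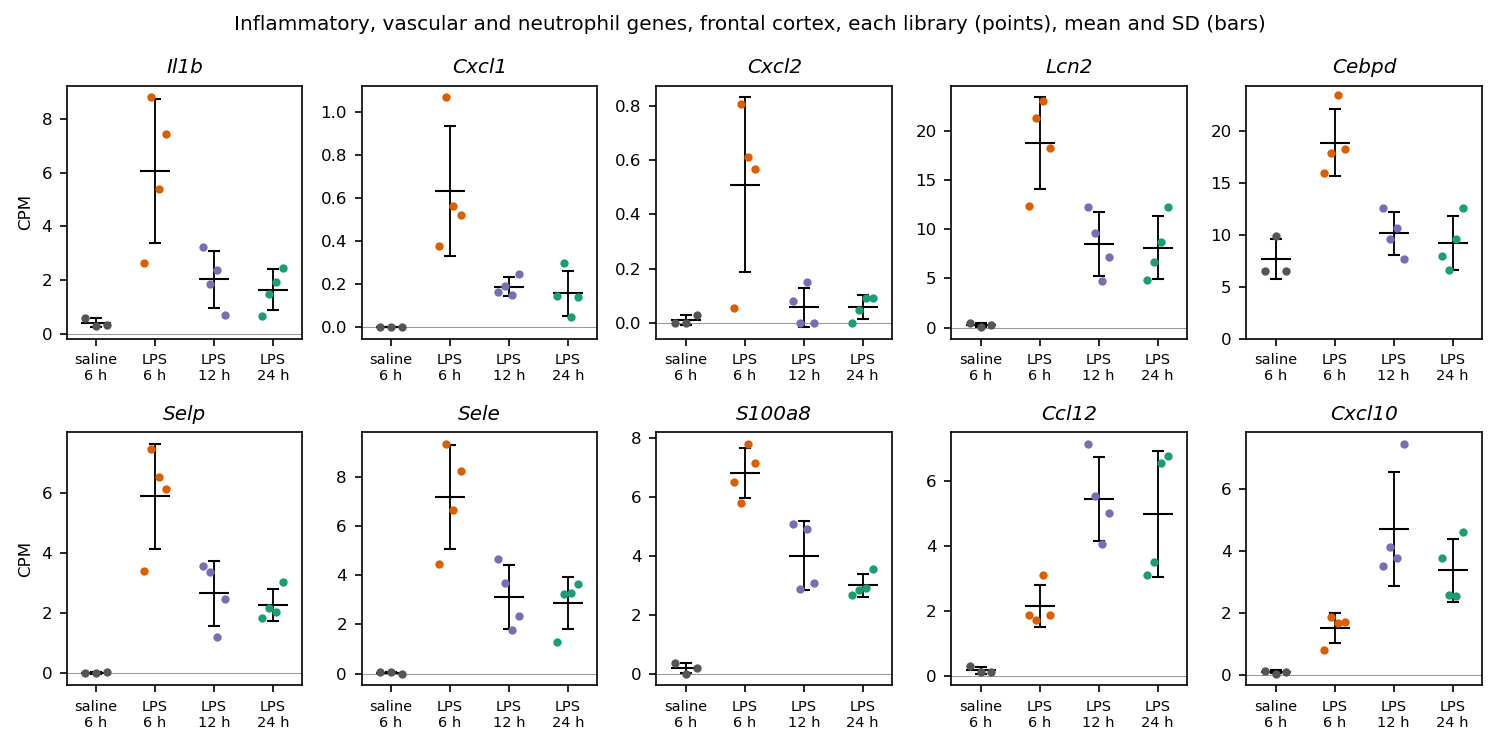
CPM of 10 genes in each frontal cortex library (points) for saline 6 h, LPS 6 h, LPS 12 h and LPS 24 h, with the mean and SD of each group as bars. Il1b, Cxcl1, Cxcl2, Selp, Sele and S100a8 stood highest at 6 h, and Ccl12 and Cxcl10 were higher at 24 h than at 6 h.

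Of 23 genes of LPS sensing and NF-kB feedback 1 was called, Cd14, which was lower at 24 h (1.04% of all genes tested were lower). The list median was -0.24, and 2 of 23 were above 0 against 8270 of 17111 genes. Cd14, the LPS co-receptor, was at 4.78, 5.45, 4.64 and 7.19 CPM at 24 h against 6.17, 10.8, 10.6 and 10.2 CPM at 6 h. A240 overlapped with the 24 h group, and the log2 fold change was -0.78 ± 0.19 (adjusted p = 0.0465, up to 0.148 without A274). Bcl3, an NF-kB cofactor, was at 2.92 ± 1.31 against 5.56 ± 0.831 CPM (adjusted p = 0.0739), and the receptor gene Tlr2 at 3.96 ± 1.13 against 6.41 ± 1.44 CPM (adjusted p = 0.117). Cd14 was still above saline at 24 h (log2 1.52, adjusted p = 0.000583).

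Of 21 interleukin receptor, STAT3 and acute phase genes tested, 4 were lower at 24 h and none was higher, with a median of -0.33. Haptoglobin, a haemoglobin-binding acute phase protein encoded by Hp (ENSMUSG00000031722.9, chromosome 8, 109575128 to 109579172), was at 0.621, 0.347, 0.727 and 1.4 CPM at 24 h against 1.79, 2.85, 2.86 and 2.61 CPM at 6 h. The groups were apart, and the log2 fold change of -1.69 ± 0.3 (adjusted p = 0.00784) was called without any 1 of the 8 libraries. Cebpd, a transcription factor induced by inflammation and by glucocorticoids (ENSMUSG00000071637.5, chromosome 16, 15887286 to 15891031), was at 7.98, 6.58, 9.54 and 12.6 CPM against 15.9, 17.8, 23.4 and 18.2 CPM, again without overlap. Its change of -1.04 ± 0.19 (adjusted p = 0.0121) was called in all 8 fits that left out a library. Cebpd in saline was at 6.49, 9.83 and 6.52 CPM, and its 24 h level differed from saline by log2 0.29 (adjusted p = 0.599). The related Cebpb fell to 8.11 ± 0.788 CPM at 24 h, against 11.5 ± 0.805 CPM at 6 h (log2 -0.5 ± 0.11, adjusted p = 0.0191, up to 0.0751 without A275). Saa3, a serum amyloid gene at 0 in all saline libraries, was at 0.547 ± 0.355 against 2.09 ± 0.502 CPM (log2 -1.91 ± 0.42, adjusted p = 0.0315, up to 0.096 without A274). Lcn2, the iron-sequestering protein lipocalin 2, was at 4.87, 6.68, 8.73 and 12.3 CPM against 12.4, 21.3, 23 and 18.3 CPM, groups that just did not overlap, but it was not called (adjusted p = 0.0742). It passed without A278 (adjusted p = 0.0275). Without A274, A275, A240 or A242, 2 of the 21 were called, and without both A241 and A275 none was.

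Of 22 endothelial activation genes tested, Selp and Sele were lower at 24 h and Adamts9 was higher (median -0.10). P-selectin, which captures rolling leucocytes, is encoded by Selp (ENSMUSG00000026580.16, chromosome 1, 164115264 to 164150026). It was at 1.82, 2.18, 2.05 and 3.03 CPM at 24 h against 3.41, 7.46, 6.52 and 6.11 CPM at 6 h and at most 0.0313 CPM in saline (log2 -1.37 ± 0.28, adjusted p = 0.0174). E-selectin, encoded by its neighbour Sele, was at 1.29, 3.22, 3.27 and 3.64 CPM against 4.44, 9.34, 6.67 and 8.24 CPM (log2 -1.33 ± 0.31, adjusted p = 0.0441). The groups were apart in both genes, with A240 lowest among the 6 h libraries. Adamts9, a secreted protease that cleaves proteoglycans, was at 8.55, 10.2, 16.2 and 15.6 CPM against 5.58, 8, 6.71 and 6.16 CPM (log2 0.94 ± 0.22, adjusted p = 0.0439). Vwf, the clotting protein von Willebrand factor, was at 73.5, 56.9, 33.3 and 32.3 CPM against 19.4, 23.1, 17.7 and 22.7 CPM, apart in every library but just short of a call (log2 1.24 ± 0.28, adjusted p = 0.0506). Icam1, an adhesion receptor for leucocytes, was at 5.67 ± 1.61 against 8.87 ± 2.69 CPM with overlap (adjusted p = 0.141). The calls reached adjusted p values of up to 0.0658 for Selp (without A274), 0.0969 for Sele (without A275) and 0.142 for Adamts9 (without A240), while Vwf passed without A276 (0.0253) and without A278. Icam1 passed without A278 (0.0451). Without both A241 and A275 none of the 22 was called. The largest rises under the rule for named genes, which asks for a mean of at least 1 log2 CPM, held 2 further endothelial genes. Ecscr, a regulator of endothelial migration, was at 4.37 ± 0.713 against 1.94 ± 0.762 CPM (log2 1.16 ± 0.27, adjusted p = 0.0335, up to 0.112 without A240), and Clec14a, an endothelial lectin, at 3.41 ± 1.07 against 1.66 ± 0.447 CPM (log2 1.04 ± 0.24, adjusted p = 0.0346, up to 0.129 without A274). In saline Ecscr averaged 0.565 CPM and Clec14a 4.54 CPM, so the Clec14a means of both LPS times lay below its saline mean.

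Of 22 genes of the blood-brain barrier and of endothelial identity 2 were higher, 1 was lower and the median was 0.21. Mfsd2a encodes the lipid transporter that carries docosahexaenoic acid over the barrier and restrains transcytosis (ENSMUSG00000028655.11, chromosome 4, 122946850 to 122961188). Its level was 8.27, 6.83, 9.95 and 9.66 CPM at 24 h against 21.3, 21.7, 21.1 and 20.3 CPM at 6 h, with saline at 33.2, 36.7 and 26.2 CPM. No libraries of the 3 groups overlapped, and the 24 h to 6 h change of -1.28 ± 0.13 (adjusted p = 2.5e-05) was called in all 8 fits without a library. The junctional adhesion gene Pecam1 was at 31.4 ± 2.59 against 22.2 ± 2.88 CPM (log2 0.5 ± 0.1, adjusted p = 0.0157, and 0.0688 without A240). Kdr, the main receptor for vascular endothelial growth factor, was at 12.6 ± 2.17 against 9.04 ± 0.374 CPM (log2 0.49 ± 0.11, adjusted p = 0.0365, up to 0.096 without A240). Saline means were 21.7 CPM for Pecam1 and 13.8 CPM for Kdr, the latter above both LPS times. Endothelial markers as a whole summed to 165.6 to 185.3 CPM at 24 h and 114.2 to 148.5 CPM at 6 h (133.4 to 150.6 in saline), and 1 of 5 was called. Mural cell markers summed to 209.4 to 237.7 against 145.8 to 182.2 CPM, and 1 of 9 was called, the pericyte gene Rgs5 (88.7 ± 3.31 against 62.2 ± 5.93 CPM, log2 0.51 ± 0.08, adjusted p = 0.00241). In bulk tissue a change in the number of cells of a type and a change in RNA per cell cannot be told apart, here or for the immune cell genes below.

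Of 11 neutrophil markers 9 were tested, and 3 fell, S100a8, S100a9 and Mmp8, with 6 not called, none higher and a median of -0.90. The marker sum was 14.52 to 18.26 CPM at 24 h, 22.47 to 30.9 CPM at 6 h and 5.646 to 7.448 CPM in saline. Calprotectin, an abundant neutrophil protein, is a dimer encoded by S100a8 and S100a9. S100a8 (ENSMUSG00000056054.9, chromosome 3, 90668978 to 90670035) was at 2.68, 2.82, 2.91 and 3.55 CPM against 6.5, 5.8, 7.79 and 7.15 CPM, well apart (log2 -1.19 ± 0.21, adjusted p = 0.00834), and was called without any 1 library. S100a9 was at 3.94 ± 1.09 against 8.12 ± 1.39 CPM (log2 -1.04 ± 0.24, adjusted p = 0.0378, up to 0.117 without A242). The granule collagenase gene Mmp8 had 18 reads at 24 h and 68 at 6 h, a ratio of 0.259 (0.145 to 0.44; adjusted p = 0.0157, up to 0.0606 without A275). Other markers were present at low levels: the defining markers Ly6g and Camp reached at most 0.149 and 0.28 CPM in any of the 8 libraries and were not tested. Of 5 monocyte markers tested, Chil3, a chitinase-like protein of monocytes and neutrophils, was lower at 24 h (2.35 ± 0.773 against 4.98 ± 0.959 CPM, log2 -1.08 ± 0.22, adjusted p = 0.0172, up to 0.0616 without A274), with none higher and a median of -0.46. Plac8, another of these markers, was at 1.72, 0.842, 0.5 and 0.373 CPM at 24 h against 0.271, 0.107, 0.141 and 0.0947 CPM at 6 h, without overlap and not called (log2 2.45 ± 0.61, adjusted p = 0.0515). The monocyte marker sum was 75.97 to 126.7 CPM at 24 h, 57.63 to 85.72 CPM at 6 h and 32.15 to 50.77 CPM in saline. Most of this sum came from members other than Chil3 and Plac8, and 2 of the 5 tested were above 0. It therefore does not speak for the monocyte markers as a set. Lymphocyte markers summed to 1.839 to 4.434 CPM at 24 h and 1.407 to 3.785 CPM at 6 h.

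Of 31 interferon-stimulated genes tested 1 was higher at 24 h, none was lower, 28 were above 0 and the median was 0.28. Over all genes tested 0.789% were higher. Mx1, an antiviral GTPase (ENSMUSG00000000386.14, chromosome 16, 97447035 to 97462907), was at 1.1, 0.743, 0.682 and 0.793 CPM at 24 h against 0.217, 0.268, 0.282 and 0.284 CPM at 6 h, and at 0.182 to 0.251 CPM in saline. All 24 h libraries were above all others (log2 1.63 ± 0.29, adjusted p = 0.00784), and the call held without any 1 library. Mx1 rests on 70 reads at 24 h and 21 at 6 h, a ratio of 3.26 (1.98 to 5.59). Ifit3, which restricts viral RNA, was at 43.8, 36.8, 27.8 and 31.7 CPM against 18, 19.6, 18.9 and 18.1 CPM without overlap, yet was not called (log2 0.91 ± 0.22, adjusted p = 0.0567), and reads of its near-identical copy Ifit3b make its counts uncertain. Oasl2 and Rsad2, further antiviral genes, had adjusted p values of 0.122 and 0.124.

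Guanylate-binding and immunity-related GTPases, which interferon gamma induces strongly, gave 0 calls among 14 tested genes by edgeR at a median of 0.45. They differed between mice of the 24 h group. Gbp4 was at 3.68, 2.92, 17 and 21 CPM at 24 h against 3.63, 5.31, 5.63 and 4.26 CPM at 6 h (adjusted p = 0.441). Iigp1 was at 4.78, 2.77, 12.4 and 20.2 CPM against 2.92, 5.69, 4.32 and 4.12 CPM (adjusted p = 0.332). In both genes A276 and A278 were above every 6 h library while A274 and A275 lay within or near the 6 h range. Counts of Gbp4 are uncertain because the family shares sequence.

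Among 19 antigen presentation genes of MHC class I, 1 was higher and 1 lower (median 0.09). Tap1, a subunit of the transporter that loads peptides onto MHC class I (ENSMUSG00000037321.17, chromosome 17, 34187553 to 34197225), was at 6.74, 5.2, 9 and 9.57 CPM at 24 h against 3.95, 4.08, 3.52 and 3.74 CPM at 6 h. The groups were apart, and the log2 fold change of 1 ± 0.17 (adjusted p = 0.00636) was called without any 1 library. H2-T23, a non-classical class I gene whose reads can be shared with related copies, was at 29.8 ± 4.45 against 46.3 ± 7.82 CPM (log2 -0.64 ± 0.13, adjusted p = 0.0161, up to 0.0613 without A275), with saline at 32.5 CPM on average.

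Of 17 complement genes tested C4b was higher and none was lower (median 0.17). C4b encodes complement component 4 (ENSMUSG00000073418.4, chromosome 17, 34728380 to 34743882). It was at 38.6, 42.7, 39.4 and 40 CPM at 24 h against 23.8, 25.4, 21.5 and 23 CPM at 6 h, tight within each time and far apart between them (log2 0.78 ± 0.09, adjusted p = 0.00011, called without any 1 library). At 6 h C4b did not differ from saline by the test (log2 0.16, adjusted p = 0.353; saline 20, 21.3 and 21.3 CPM). Of 25 genes of Fc gamma receptors and activated microglia 2 were higher: Fcgr1, the high-affinity IgG receptor (8.21 ± 1.12 against 5.25 ± 0.637 CPM, log2 0.64 ± 0.15, adjusted p = 0.0388), and Cd68, a lysosomal protein of macrophages (11.4 ± 0.797 against 8.56 ± 0.315 CPM, log2 0.41 ± 0.1, adjusted p = 0.0465). Both calls were lost without A274 or other single libraries, with adjusted p values of up to 0.131 (Fcgr1, without A274) and 0.129 (Cd68, without A275). The list count was 0 or 1 when a library was left out, 6 with DESeq2 and 7 with both tissues in 1 fit.

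Homeostatic microglial genes, those that mark microglia at rest, gave the most calls of the 29 lists in this fit. Of 22 tested 7 were higher at 24 h and none was lower, 20 were above 0 and the median was 0.73, against -0.01 for all genes, of which 0.789% were higher. Fcrls (ENSMUSG00000015852.13, chromosome 3, 87250758 to 87263738) was at 35.7, 31.8, 21.6 and 21.6 CPM at 24 h against 7.31, 2.74, 7.84 and 5.49 CPM at 6 h, and at 5.83, 2.67 and 7.08 CPM in saline. The 24 h libraries were all far above the others, for a log2 fold change of 2.24 ± 0.38 (adjusted p = 0.0153). Tmem119, a microglial membrane protein (ENSMUSG00000054675.5, chromosome 5, 113793729 to 113800516), was at 31.5, 34, 21 and 24.5 CPM against 11.4, 7.3, 13.9 and 10.9 CPM, again apart (log2 1.34 ± 0.21, adjusted p = 0.00643). Its saline mean of 15 CPM lay between the means of the LPS times. Cx3cr1, the receptor for the neuronal chemokine fractalkine (ENSMUSG00000052336.6, chromosome 9, 119901616 to 120069879), was at 47.8, 48.9, 47.9 and 48.4 CPM against 31.3, 22.1, 27.9 and 27.5 CPM. The 24 h values of Cx3cr1 were nearly equal, and its log2 fold change was 0.83 ± 0.14 (adjusted p = 0.00763).

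Csf1r, the receptor on which microglia depend for survival, was at 106, 99.3, 77.8 and 80.3 CPM at 24 h against 56.2, 47.4, 54.5 and 60.7 CPM at 6 h, with saline between them at 74.4, 61.7 and 76.6 CPM (log2 0.73 ± 0.13, adjusted p = 0.012). Tgfbr1, a receptor for the growth factor TGF-beta, was at 21.1 ± 3.33 against 13.1 ± 1.15 CPM (log2 0.69 ± 0.12, adjusted p = 0.00763), and against the saline mean of 21.5 CPM its 24 h level differed by log2 -0.03 (adjusted p = 0.948) and its 6 h level by -0.72 (adjusted p = 0.00273). The calls of Fcrls, Tmem119, Cx3cr1, Csf1r and Tgfbr1 held without any 1 library. Olfml3, a secreted microglial protein, was at 46.5, 39.2, 20.7 and 24.5 CPM against 12.3, 10.6, 13.2 and 9.95 CPM (log2 1.5 ± 0.33, adjusted p = 0.0437, up to 0.115 without A240). Slc2a5, a fructose transporter of microglia, was at 2.82 ± 1.12 against 1.01 ± 0.27 CPM (log2 1.46 ± 0.32, adjusted p = 0.0277, up to 0.0954 without A274). P2ry12, through which resting microglia sense ADP, was at 30.4, 25.1, 12.6 and 9.66 CPM against 9.53, 4.46, 7.65 and 7.34 CPM. Its lowest 24 h library, A278, barely cleared A240, and it was not called (adjusted p = 0.223). In Fcrls, Olfml3, Tmem119, Csf1r and P2ry12 alike, A274 and A275 stood above A276 and A278, the reverse of the order in Gbp4 and Iigp1. Without both A241 and A275, 1 of the 22 genes was called.

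The 6 defining microglial markers summed to 217.7 to 304.8 CPM at 24 h, 117.2 to 153.5 CPM at 6 h and 139.8 to 185.2 CPM in saline, and 3 of 6 were called higher. The largest rises under that rule also held Capn3, a calcium-dependent protease (6.19 ± 2.13 against 2.32 ± 0.662 CPM, log2 1.41 ± 0.32, adjusted p = 0.0366), and Tifab, an inhibitor of the signalling adaptor TIFA (4.4 ± 0.514 against 1.85 ± 0.544 CPM, log2 1.25 ± 0.19, adjusted p = 0.00221). Bin2, a membrane-shaping protein of leucocytes and microglia, was at 9.95 ± 2.55 against 4.33 ± 0.665 CPM (log2 1.19 ± 0.25, adjusted p = 0.0221), and Dock2, an activator of the GTPase Rac in leucocytes, at 5.25 ± 1.84 against 2.34 ± 0.299 CPM (log2 1.16 ± 0.25, adjusted p = 0.0273). Tifab held without any 1 library. Without single libraries the adjusted p reached 0.104 for Capn3 (without A274), 0.0776 for Bin2 (without A242) and 0.0954 for Dock2 (without A274).

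Of 26 DNA replication and cell division genes tested 2 were higher and none was lower (median 0.18). Both encode subunits of the MCM helicase that opens DNA for replication. Mcm3 was at 6.12, 5.69, 4.73 and 3.55 CPM at 24 h against 2.22, 2.04, 2.63 and 3.08 CPM at 6 h (log2 1 ± 0.22, adjusted p = 0.0285, up to 0.0982 without A274). Mcm6 was at 10.2, 10.6, 6.23 and 7.42 CPM against 4.6, 5.26, 5.63 and 5.12 CPM (log2 0.74 ± 0.17, adjusted p = 0.0317, up to 0.113 without A275). Neither gene's groups overlapped.

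**Figure D3:**
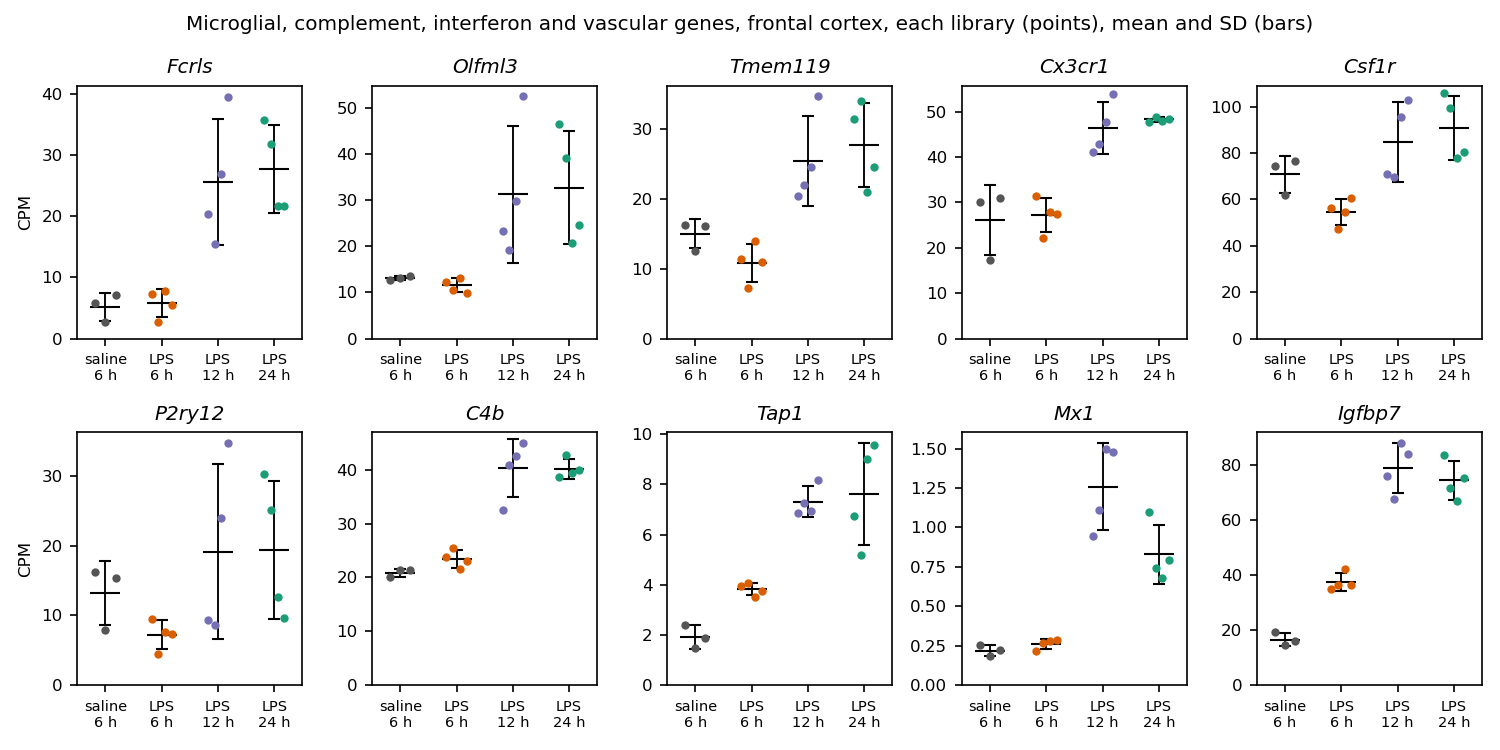
CPM of 10 microglial, complement, interferon, antigen presentation and vascular genes in each frontal cortex library (points) for saline 6 h, LPS 6 h, LPS 12 h and LPS 24 h, with group mean and SD as bars. Fcrls, Cx3cr1 and C4b at 6 h lay near saline and were higher at 24 h, and the 24 h libraries of P2ry12 split into a high and a low pair. Tmem119 averaged 15 CPM in saline, 10.9 CPM at 6 h and 27.7 CPM at 24 h.

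Glucocorticoid-responsive genes were lower at 24 h than at 6 h in 6 of 24 cases, none was higher, and the list median was -0.22. Over all genes tested 1.04% were lower and 0.789% were higher. Plin4, whose promoter is printed above, coats lipid droplets (ENSMUSG00000002831.13, chromosome 17, 56100591 to 56109803). It was at 0.86, 1.09, 1.73 and 2.29 CPM at 24 h against 11.5, 14.7, 7.75 and 9.28 CPM at 6 h, while saline libraries were at 61.9, 63.9 and 41.7 CPM. The 3 groups were fully separate, and the fall between 6 h and 24 h was -2.84 ± 0.31 on the log2 scale (adjusted p = 0.000258), called without any 1 library. Sult1a1, a sulfotransferase for phenols (ENSMUSG00000030711.15, chromosome 7, 126672865 to 126676432), was at 3.11, 2.92, 9.41 and 9.33 CPM against 30.4, 23.5, 26.2 and 26.9 CPM, apart from 6 h but with A274 and A275 well below A276 and A278 (log2 -2.1 ± 0.44, adjusted p = 0.0365, up to 0.102 without A240). Sult1a1 at 6 h was near its saline level (log2 -0.23, adjusted p = 0.79), and Plin4 at 6 h was already far below (log2 -2.37, adjusted p = 5.42e-05).

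Metallothioneins bind zinc and copper and respond to glucocorticoids and to metals. Mt1 (ENSMUSG00000031765.7, chromosome 8, 94179082 to 94180327) was at 141.8, 153.4, 169.5 and 222.8 CPM at 24 h against 419.0, 260.6, 366.5 and 287.6 CPM at 6 h, with no overlap (log2 -0.96 ± 0.15, adjusted p = 0.00684, called without any 1 library). Mt2 was at 78 ± 8.74 against 133 ± 31.3 CPM (log2 -0.77 ± 0.15, adjusted p = 0.0173, up to 0.0641 without A242). Fkbp5, whose product holds the glucocorticoid receptor in check and which the receptor induces, was at 34.9, 28.8, 34.8 and 33.7 CPM against 49.4, 58.2, 39.9 and 45.4 CPM, and at 81.7 to 118 CPM in saline (log2 -0.54 ± 0.13, adjusted p = 0.0462, up to 0.133 without A275). Gpd1, glycerol-3-phosphate dehydrogenase, was at 70.7 ± 9.57 against 97.4 ± 3.95 CPM (log2 -0.46 ± 0.1, adjusted p = 0.026, up to 0.0914 without A275). Tsc22d3, the glucocorticoid-induced leucine zipper, was at 51.5 ± 2.04 CPM at 24 h and 53.1 ± 4.54 CPM at 6 h (log2 -0.04 ± 0.09), below 79.3 ± 10.9 CPM in saline (SD, n = 3). Sgk1, a kinase induced by the hormone, was at 50.5 ± 6.54 against 52.3 ± 5.29 CPM (log2 -0.05 ± 0.21) and at 85.3, 200 and 125 CPM in saline. These 2 were chosen after their values were seen. Without A274 or without A275, 2 genes of this list were called, and without both A241 and A275, 3.

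Clock genes moved little. Of 20 tested 2 were higher at 24 h and none was lower (median 0.09). Per2, a repressor within the molecular clock, was at 38.7, 39, 25.3 and 30.9 CPM at 24 h against 19.1, 25, 17.8 and 27.1 CPM at 6 h, with A276 below A243 (log2 0.59 ± 0.14, adjusted p = 0.0412, up to 0.139 without A274). Dbp, a clock output transcription factor, was at 62.4, 63.3, 66.8 and 69.4 CPM against 54.4, 52, 51.6 and 58.9 CPM, with no overlap (log2 0.27 ± 0.07, adjusted p = 0.0494, up to 0.134 without A242). Arntl, the activator of the clock, was at 20.9 ± 0.403 against 24.2 ± 1.36 CPM (adjusted p = 0.153), Nr1d2, a repressor of Arntl, at 133 ± 8.95 against 116 ± 7.01 CPM (adjusted p = 0.132), and Per1 at 94.1 ± 24.1 against 69.5 ± 10.5 CPM (adjusted p = 0.199).

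Among 16 genes of astrocyte homeostasis 3 were higher and 2 were lower, around a median of -0.03. Gjb6, the gap junction protein connexin 30 (ENSMUSG00000040055.8, chromosome 14, 57123303 to 57133611), was at 51.7, 50.4, 48.5 and 53 CPM at 24 h against 81.4, 78, 79.8 and 76.1 CPM at 6 h, with saline at 92.9 to 100 CPM. The 3 groups were separate and tight (log2 -0.63 ± 0.06, adjusted p = 1.26e-05, called without any 1 library). Glul, glutamine synthetase, fell to 1460 ± 49.9 CPM at 24 h, against 1800 ± 78.3 CPM at 6 h (log2 -0.3 ± 0.06, adjusted p = 0.011, and 0.0508 without A275). The potassium channel gene Kcnj10 was at 217 ± 13.2 against 166 ± 9.28 CPM (log2 0.39 ± 0.09, adjusted p = 0.04, up to 0.14 without A274), the bicarbonate transporter gene Slc4a4 at 136 ± 12.6 against 103 ± 6.89 CPM (log2 0.41 ± 0.08, adjusted p = 0.011) and the GABA transporter gene Slc6a11 at 127 ± 8.33 against 99.4 ± 7.78 CPM (log2 0.35 ± 0.08, adjusted p = 0.0338, up to 0.112 without A240). Slc4a4 was called without any 1 library. Etnppl, an astrocytic enzyme that breaks down phosphoethanolamine, was at 17.1, 23.7, 43.5 and 43.3 CPM against 88.1, 84.3, 68.1 and 72.6 CPM (log2 -1.29 ± 0.29, adjusted p = 0.0475, up to 0.129 without A240). Its groups were apart, with A274 and A275 lowest.

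Of 23 reactive astrocyte genes tested 1 was lower and none was higher (median -0.27). It was S100a10, an annexin-binding protein, at 21.9 ± 1.5 against 29.8 ± 5.09 CPM (log2 -0.44 ± 0.11, adjusted p = 0.0419, up to 0.137 without A242). The count of lower members was 0 without A274, A275, A276, A240 or A242, 2 without A243, 4 without A278, and 5 with DESeq2 or with both tissues in 1 fit. Gfap, the filament protein of reactive astrocytes, was at 230.4, 245.3, 285.4 and 360.1 CPM at 24 h against 212.5, 232.7 and 203.6 CPM in A240, A242 and A243 and a higher value in A241 at 6 h, overlapping and not called (adjusted p = 0.253), and was above saline (112 to 132 CPM) at both times. Cyp1b1, a cytochrome P450 of vascular cells, was at 4.97, 3.17, 5.23 and 6.95 CPM against 9.26, 21.1, 10.4 and 13.9 CPM (log2 -1.42 ± 0.27, adjusted p = 0.0172, up to 0.0582 without A274).

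**Figure D4:**
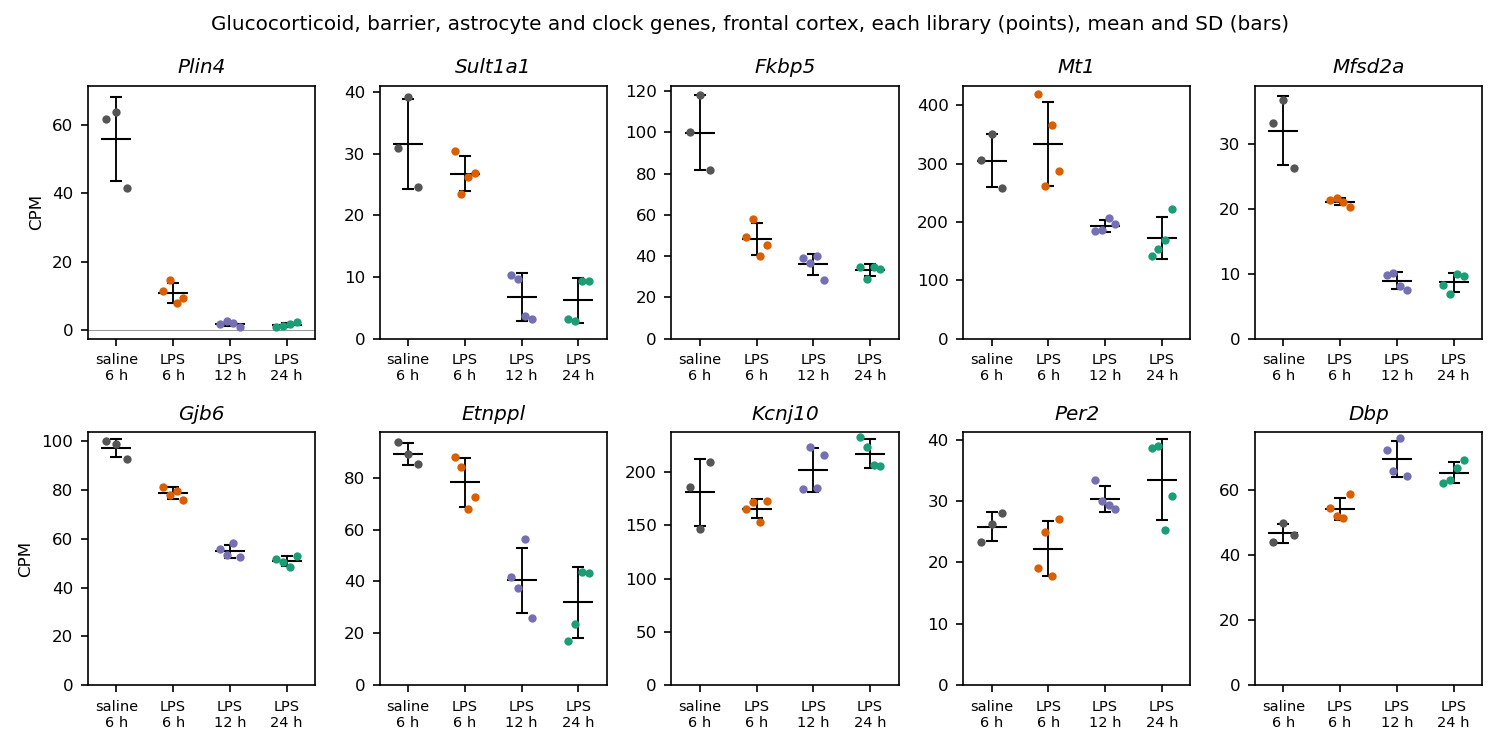
CPM of 10 glucocorticoid-responsive, barrier, astrocyte and clock genes in each frontal cortex library (points) for saline 6 h, LPS 6 h, LPS 12 h and LPS 24 h, with group mean and SD as bars. Plin4, Mfsd2a and Gjb6 stepped down from saline to 6 h and again by 24 h without overlap, whereas Sult1a1 and Mt1 at 6 h lay near saline.

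Neuronal programmes gave few calls, to be set beside 0.789% higher and 1.04% lower over all genes tested. Of 16 neuropeptide genes Vip, which encodes vasoactive intestinal peptide of cortical interneurons (chromosome 10, 5639218 to 5647617), was lower and none was higher. It was at 45.4, 46.3, 45.1 and 44.9 CPM at 24 h against 64.9, 64.5, 66.3 and 60.5 CPM at 6 h, with narrow groups far apart (log2 -0.5 ± 0.08, adjusted p = 0.00338, called without any 1 library). Of 31 synaptic genes the synaptic vesicle gene Syn2 was higher (403 ± 15 against 341 ± 11.5 CPM, log2 0.24 ± 0.05, adjusted p = 0.0225, up to 0.0835 without A274), and the list median was 0.01. By edgeR 0 of 14 cholinergic genes, 0 of 20 immediate early genes, 0 of 27 heat shock and chaperone genes and 0 of 12 oligodendrocyte precursor genes were called. Ache, the acetylcholinesterase that DFP inhibits, was at 49.4 ± 6.25 against 44 ± 3.69 CPM (log2 0.17 ± 0.12, adjusted p = 0.539). Dcc, a netrin receptor of axon guidance, was among the largest rises under the same rule (4.57 ± 0.627 against 2.27 ± 0.156 CPM, log2 1.01 ± 0.15, adjusted p = 0.00172, called without any 1 library).

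Of 18 myelin genes 1 was higher and 1 was lower (0.789% and 1.04% over all genes tested). The lower one was Mobp, a structural myelin protein (912 ± 116 against 1230 ± 141 CPM, log2 -0.43 ± 0.09, adjusted p = 0.0257, up to 0.101 without A240). Other lists gave single calls. Ptgds, prostaglandin D synthase, was at 661, 710, 814 and 1040 CPM at 24 h against 1230, 1270, 1450 and 1260 CPM at 6 h, without overlap (log2 -0.69 ± 0.13, adjusted p = 0.0153, up to 0.056 without A242). The ferritin heavy chain gene Fth1 was at 2380 ± 260 against 3030 ± 394 CPM with overlap (log2 -0.35 ± 0.09, adjusted p = 0.047, up to 0.171 without A240). The cystine transporter gene Slc7a11 was at 52.1 ± 5.21 against 38.9 ± 4.11 CPM (log2 0.42 ± 0.1, adjusted p = 0.0317, up to 0.118 without A275), and the squalene synthase gene Fdft1 at 74.5 ± 2.35 against 89 ± 2.72 CPM (log2 -0.26 ± 0.06, adjusted p = 0.0366, up to 0.104 without A274).

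All 13 mitochondrially encoded respiratory chain genes had log2 fold changes under 0 (median -0.38), and of 27 nuclear encoded ones the median was -0.19, with 0 calls in either list by edgeR. DESeq2 called 3 of the mitochondrially encoded and 1 of the nuclear encoded genes lower. The same transcripts make up the mitochondrial share of each library given above.

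**Figure D5:**
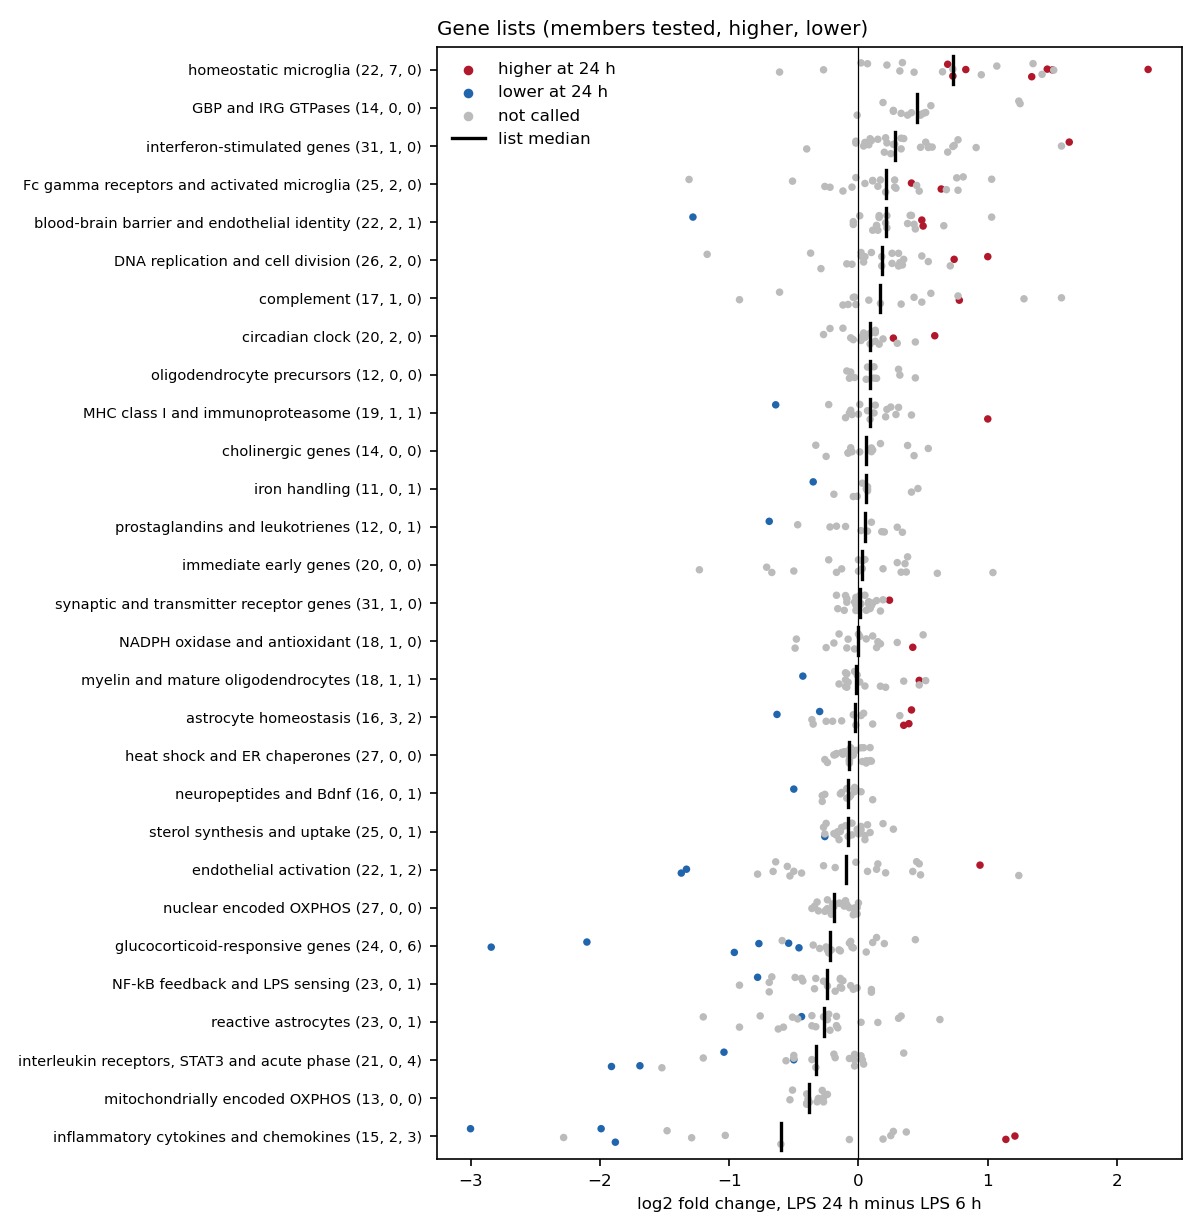
Log2 fold change (LPS 24 h minus LPS 6 h, frontal cortex, horizontal axis) of every tested member (points) of 29 gene lists, ordered by list median (black bar), with called genes in red (higher) or blue (lower). Homeostatic microglial genes sat at the top with a median of 0.73 and 7 of 22 called, and cytokine genes at the bottom with a median of -0.60.

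The same 24 h to 6 h change was set against that of the hippocampus in a fit of all 30 libraries, to test whether the cortex differed. The difference was called by edgeR in 22 of 17650 genes (0.125%, with 1681 at an unadjusted p under 0.05). Limma-voom with the mouse as a random block called 50, and without the block 55. The count rested on single libraries: it was 0 without hippocampal A240, 1 without cortical A240 or A276 or hippocampal A242, A276 or A278, 10 or 11 without cortical A242, A243 or A275 or hippocampal A243 or A274, 44 without cortical A278 and 91 without cortical A241. Of the 22 genes 9 were also called in the cortex alone. For Il1b, Plin4, Fcrls, Tmem119, Mfsd2a, S100a8 and C4b the interaction was not called (adjusted p = 0.62, 0.849, 0.994, 0.912, 0.556, 0.932 and 0.787), and their changes in the hippocampus were log2 -3.04, -2.3, 2.27, 1.51, -0.91, -1.01 and 0.94. A missed threshold does not show that the tissues changed alike. Galnt16, an enzyme that starts O-linked glycans, was at 132, 137, 161 and 155 CPM at 24 h against 191, 220, 196 and 215 CPM at 6 h in the cortex (log2 -0.49 ± 0.08, adjusted p = 0.0057), with a change of 0.02 in the hippocampus and a difference of -0.5 (adjusted p = 0.0389). Mgat5b, a glycosyltransferase of the brain, was at 94.1 ± 2.6 against 76.1 ± 4.86 CPM in the cortex (log2 0.31 ± 0.07, adjusted p = 0.0366), with -0.1 in the hippocampus and a difference of 0.42 (adjusted p = 0.0389). The cortical call of Mgat5b reached an adjusted p of 0.101 without A274, and that of Galnt16 held without any 1 library. Both genes were named after their values were seen.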

How the data were processed

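Strand-specific libraries of poly(A) RNA from tissue were read from both ends, per the labels. The table the authors deposited held whole-number read counts per gene. Trim Galore 0.4.1, FastQC, STAR 2.6.0a, DESeq2 and the build GRCm38 (mm10) are named in the submitters' processing notes; the sources used here give neither the counter with its strand setting nor the annotation, so counts of near-identical, overlapping or antisense genes are uncertain. A gene symbol was found for 98.4% of identifiers, and nameless entries held at most 0.29% of counts. Totals of 18479503 to 21892334 counts per compared library limit precision most for genes with few counts.

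A single edgeR 4.0.16 model (R 4.3.3) took all 15 frontal cortex libraries, with TMM scaling and the robust quasi-likelihood test; filterByExpr kept genes by a count of 10 and a total of 15. P values were two-sided and adjusted by Benjamini-Hochberg over every gene tested, at a threshold of 0.05. TMM factors were 0.931 to 1.038. Changes against the hippocampus came from a fit of all 30 libraries. For genes with at most 30 counts in a group, ratios of pooled counts carry exact 95% intervals, printed for some. Scripts were tested on simulated data. No pair of replicates was a duplicate (chi-square of 5.56 to 24.01 per gene). Mouse codes link tissues of the 8 mice, whose deviations correlated at -0.056 to 0.411, but the 24 h and 6 h mice are different animals, so no block entered the main comparison.

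Named genes were the 15 largest rises and falls among called genes with at least 1 log2 CPM and groups that did not overlap, leaving out predicted genes; to these came at most 5 members from each of 29 lists and 12 genes that were always named; some genes this rule picks are not reported here. A further 34 named genes fall outside this rule and were chosen after their values were seen: among them Mmp8, Plac8, Csf1r, Tgfbr1, Gpd1, Rgs5, Tsc22d3, Sgk1, Galnt16, Mgat5b and all genes of the other observations but Pla2g3, Serpinb6b and Abca8a. The genes, lists, promoter rule and tests were chosen with earlier results of these data known. Alternatives were DESeq2 1.42.0, limma 3.58.1 (voom), other scalings and filters, fewer or more libraries, a mouse block and each library left out.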

Additional observations from a re-analysis of the deposited data

Results flagged for a closer look

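Among the sets of 4 values of 116 named genes (1 set at 24 h and 1 at 6 h for each gene, in the cortex), 7 held a library whose gap to its nearest neighbour took up more of the group's range than Dixon's 95% critical value for 4 samples allows. Chance flags about 1 in 20 groups. In A274 these were Clec14a at 5.02 CPM, against 2.8 to 2.92 CPM in the other 24 h libraries, and Sgk1 at 60.2 CPM, against 46.3 to 48.6 CPM. Cd34 in A276 was at 63.8 CPM, against 68.8 to 69.4 CPM. Ccdc153 in A275 was at 1.19 CPM, against 0.607 to 0.669 CPM. At 6 h, Ccl12 in A242 stood at 3.1 CPM against 1.72 to 1.89 CPM in the others, Mmp8 in A242 at 1.08 CPM against 0.758 to 0.805 CPM, and Cd14 in A240 at 6.17 CPM against 10.2 to 10.8 CPM.

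The 24 h to 6 h change differed between cortex and hippocampus, by the interaction test, in 4 named genes. Galnt16 differed by -0.5 on the log2 scale (cortex -0.49, hippocampus 0.02) and Mgat5b by 0.42 (0.31 and -0.1). The predicted genes Gm13340, by -1.03 (-0.7 and 0.34; adjusted p = 0.0288), and Gm6977, by -1.39 (-0.87 and 0.53; adjusted p = 0.0115), are entries of a kind whose reads can belong to near-identical copies elsewhere.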

How the results depend on the processing

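None of the 313 called genes reversed in any alternative, and between 235 and 305 of them were called again under the planned ones that kept all 8 libraries. Genes higher and lower at 24 h (135 and 178) numbered 244 and 118 with library totals alone, about 2.8e+02 and 302 (578 in all) with DESeq2, 211 and 272 with limma-voom and quality weights, and 412 and 481 with both tissues in 1 fit. Genes at least 2-fold higher (31) numbered 58 with DESeq2 and 84 with both tissues, and those at least 2-fold lower (41) 62 with both tissues. Leaving out 1 library gave 45 to 129 genes higher, 57 to 217 lower, 13 to 35 at least 2-fold higher and 13 to 64 at least 2-fold lower. Leaving out both A241 and A275, an alternative added after seeing the data because these had the highest choroid plexus share of their time, gave 43, 64, 7 and 14. Differences between the tissues (22) numbered 53 with no filter on low counts and 0 to 91 without 1 library. The cause of these differences was not tested, beyond the fewer or more libraries that some of them hold.

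The 24 h and 6 h mice share no code, so the replicate block pairs tissues alone. With the mouse as a random effect in both tissues (block correlation 0.11), 334 genes were higher, 460 lower and 63 at least 2-fold lower, and 50 differed between the tissues, against 55 in voom without the block. Few reads limit genes such as Cxcl1, Cxcl2, Mmp8, Mx1, Tekt4, Tmem212 and Rtp1. Each lay on average under the count filter at the time when it was lower, and was tested through groups where it was higher.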

Other observations

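The groups of genes described here were put together after their values had been seen, so no test is given for any group. Among genes picked because they fell were 6 of motile cilia, which ependymal cells carry on the ventricle wall. Other cilia genes were not counted. Tekt4, a filament protein of the axoneme (chromosome 17, 25454615 to 25476602), was at 0.239, 0.198, 0.364 and 0.373 CPM at 24 h against 1.03, 1.18, 1.46 and 1.28 CPM at 6 h, with groups far apart (log2 -2.05 ± 0.31, adjusted p = 0.00217; 25 against 99 reads, ratio 0.247, 0.152 to 0.386). Foxj1, the transcription factor that switches on motile ciliogenesis, was at 4.59, 6.29, 6.32 and 5.88 CPM against 10.5, 7.68, 9.67 and 8.81 CPM (log2 -0.67 ± 0.13, adjusted p = 0.0134, and 0.0585 without A240). Dnah14, a dynein heavy chain, was at 0.863 ± 0.151 against 2.01 ± 0.17 CPM (adjusted p = 0.0245, up to 0.0794 without A274). Tmem212 was at 0.321 ± 0.182 against 1.14 ± 0.449 CPM (adjusted p = 0.028, up to 0.0943 without A242). Ccdc153 and Ak7, further genes of ciliated cells, had log2 fold changes of -1.42 ± 0.27 and -1.13 ± 0.28 (adjusted p = 0.0121 and 0.0488, the second up to 0.168 without A240). Choroid plexus markers, from tissue that also lines the ventricles, gave 0 calls of 11 with a median of -0.23, and ranged from 15.76 to 512.1 CPM at 24 h and from 38.22 to 472.6 CPM at 6 h. The share of ventricular tissue in each sample was not tested.

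Vessel genes outside the lists were called in both directions. Igfbp7, a secreted protein of the vessel wall (ENSMUSG00000036256.13, chromosome 5, 77349240 to 77408041), was at 83.9, 71.8, 67.2 and 75.4 CPM at 24 h against 35, 36.4, 42.3 and 36.6 CPM at 6 h, with saline at 19.2, 14.4 and 16.1 CPM. The 3 groups were separate (log2 0.99 ± 0.1, adjusted p = 2.5e-05, called without any 1 library). Eng, a co-receptor for TGF-beta on endothelium, was at 29.7 ± 2.8 against 20.2 ± 1.85 CPM (log2 0.55 ± 0.08, adjusted p = 0.00241). Nos3, endothelial nitric oxide synthase, was at 8.23 ± 0.583 against 4.72 ± 0.487 CPM (adjusted p = 0.0156, up to 0.067 without A240), Cd93, an endothelial receptor, at 12 ± 0.816 against 7.32 ± 0.804 CPM (adjusted p = 0.022, up to 0.084 without A240), and the basement membrane gene Col4a1 at 49.9 ± 10.8 against 33.3 ± 3.87 CPM with overlap (adjusted p = 0.0462, up to 0.146 without A242). Cd34, a surface protein of endothelium, was lower at 67.7 ± 2.65 against 88.9 ± 8.19 CPM (log2 -0.39 ± 0.08, adjusted p = 0.0169, up to 0.0628 without A276), and so was Car4, a carbonic anhydrase of capillaries, at 16.7 ± 1.17 against 27.2 ± 1.91 CPM (log2 -0.71 ± 0.08, adjusted p = 0.000111, called without any 1 library). Of 11 meningeal and fibroblast markers tested 2 were lower, none was higher, 6 were above 0 and the median was 0.02. Of 11 border macrophage markers tested 1 was lower, none was higher, 7 were above 0 and the median was 0.24, and their sum was 13.98 to 18.53 CPM at 24 h against 13.05 to 16.97 CPM at 6 h. The called ones were Fmod (13.6 ± 1.43 against 21.2 ± 4.24 CPM, adjusted p = 0.0137, up to 0.0565 without A275), Slc6a13 (6.56 ± 1.09 against 9.09 ± 0.818 CPM, adjusted p = 0.0423, up to 0.112 without A276) and F13a1 (1.86 ± 0.405 against 3.45 ± 0.769 CPM, adjusted p = 0.0264, up to 0.0883 without A275).

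Of 4 picked leucocyte genes that microglia also express, 3 were higher: Ptprc, which encodes CD45 (5.66 ± 1.19 against 3.22 ± 0.17 CPM, adjusted p = 0.0255, up to 0.096 without A274), Laptm5, a lysosomal membrane protein (49.9 ± 13.2 against 28.6 ± 3.79 CPM, adjusted p = 0.04, up to 0.116 without A240), and Unc93b1, a chaperone of endosomal Toll-like receptors (14.1 ± 2.53 against 7.94 ± 1 CPM, adjusted p = 0.0317, up to 0.102 without A274). All 3 were highest in A274 and A275. Plek, an adaptor protein of platelets and leucocytes, was lower (16.8 ± 1.7 against 21.7 ± 0.671 CPM, log2 -0.37 ± 0.09, adjusted p = 0.0363, up to 0.134 without A274).

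Single genes with large changes included Scgb3a1, a secretoglobin (ENSMUSG00000064057.12, chromosome 11, 49663610 to 49665118), at 3.97, 4.01, 4.73 and 3.59 CPM at 24 h against 0.758, 0.644, 0.939 and 0.995 CPM at 6 h and at most 0.0607 CPM in saline (log2 2.27 ± 0.21, adjusted p = 1.26e-05). Rtp1, a transporter of odorant receptors to the membrane (ENSMUSG00000033383.6, chromosome 16, 23429133 to 23433960), was at 0.287, 0.347, 0.409 and 0.56 CPM against 4.06, 3.7, 2.58 and 3.46 CPM, with saline at 3.57 to 6.19 CPM (log2 -3.08 ± 0.36, adjusted p = 0.000188). Both were called without any 1 library and their groups were wide apart. Rtp1 at 24 h lay on average under the count filter. It was tested through groups where it was higher, so its fall is not independent of that filter. Abca8a, a lipid transporter of the ABC family, was at 7.85 ± 0.472 against 3.93 ± 0.401 CPM (log2 1 ± 0.12, adjusted p = 0.000133, called without any 1 library). Pla2g3, a secreted phospholipase, was at 2.74 ± 0.963 against 6.48 ± 1.35 CPM (adjusted p = 0.0317, up to 0.1 without A275) and Serpinb6b, a serine protease inhibitor, at 1.64 ± 0.4 against 3.41 ± 0.412 CPM (adjusted p = 0.0388, up to 0.122 without A275). Of the 22 genes that differed between the tissues, 14 had predicted or pseudogene names, and all 14 were lower in cortex minus hippocampus. The share of such names over all genes tested was not counted, so this count does not set the 22 apart.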
